A study of Mus musculus with 6 samples.

Results

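Hair follicle stem and progenitor cells were represented by 10 genes, Sox9, Lhx2, Lgr5, Lgr6, Cd34, Nfatc1, Tbx1, Lrig1, Gli1 and Tcf7l1, taken from a written list of markers without keratins and found by symbol among the 43629 genes of the count table. All 10 had reads in every library and passed the filter on low counts, together with 16829 genes in all. The libraries were made from poly(A)-selected RNA of primary keratinocytes, cultured for 5 days from the epidermis of female mice at P3, with 3 control and 3 Dnmt1Δ/Δep libraries. Dnmt1Δ/Δep mice carry floxed Dnmt1 alleles and K5-Cre, which is driven by the Keratin 5 promoter of basal keratinocytes and is active from embryonic life, and control mice carry floxed Dnmt1 alleles (f/f or f/+) without Cre. Which of these control genotypes each library came from is not given in the labels. The culture time is that of the labels and methods, and a shorter one is named elsewhere in the study. Both groups were on a mixed C57BL/6J and 129SV background, and the cells were grown in low-calcium medium on dishes coated with collagen and fibronectin.

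In skin, the hair follicle renews itself from stem cells in the bulge, below the sebaceous gland, and from progenitors in the hair germ, isthmus and junctional zone. Quiescence of these cells is held by BMP signaling and NFATC1, TBX1 supports their self-renewal, TCF7L1 represses Wnt target genes, and Wnt and Hedgehog signals start a new growth phase. SOX9 and LHX2 specify and maintain the stem cells, LGR5 and LGR6 are receptors for R-spondins that strengthen Wnt signaling, LRIG1 restrains signaling of the EGF receptor, CD34 is a sialomucin on the surface of mouse bulge cells, and GLI1 is both an effector and a target gene of the Hedgehog pathway.

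None of the 10 genes was called in Dnmt1Δ/Δep keratinocytes with thresholds of 0.05 on the adjusted p and 1 on the size of the log2 fold change, 0 as upregulated and 0 as downregulated (quasi-likelihood test of edgeR with adjustment after Benjamini-Hochberg over all 16829 genes). Over all genes tested, 6.03% were called upregulated and 0.392% downregulated. At an unadjusted p of 0.05, Cd34 was higher and Lhx2 and Tcf7l1 were lower, 1 and 2 of the 10 genes, beside 15.8% higher and 7.79% lower over all genes tested. With the Wald test of DESeq2, 1 gene was called upregulated, Cd34, and 0 downregulated, beside 1396 and 122 of all 27640 genes with a count. The fitted log2 fold change was negative in 8 of the 10 genes and positive in Cd34 and Lgr6, with a median of −0.40 beside −0.00089 over all genes tested. In 4 of the 10 genes (Sox9, Lhx2, Tcf7l1 and Cd34) the 3 Dnmt1Δ/Δep libraries lay on one side of all control libraries, beside 29.9% of all genes tested.

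Sequences at the gene starts are shown for the 3 genes with the lowest adjusted p, because DNMT1 copies methylation at CpG dinucleotides and these windows differ in how many they hold. Windows from 250 bases before to 50 bases after a RefSeq start (GRCm38.p6) were matched for 6 of the 10 genes, Lgr6, Cd34, Lhx2, Tcf7l1, Lrig1 and Tbx1. Sox9, Lgr5, Gli1 and Nfatc1 were not matched. Each window is written 5′ to 3′ on the strand of its gene, with CpG dinucleotides in capitals. The window of Cd34 is at chr1:194938571-194938870 on the plus strand, that of Lhx2 at chr2:38339031-38339330 on the plus strand and that of Tcf7l1 at chr6:72788996-72789295 on the minus strand.
Cd34: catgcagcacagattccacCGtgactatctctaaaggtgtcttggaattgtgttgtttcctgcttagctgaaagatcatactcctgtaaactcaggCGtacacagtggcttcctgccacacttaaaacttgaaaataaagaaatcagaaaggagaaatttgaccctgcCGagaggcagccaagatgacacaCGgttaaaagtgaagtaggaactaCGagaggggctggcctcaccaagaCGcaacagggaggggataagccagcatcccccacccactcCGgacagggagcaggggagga
Lhx2: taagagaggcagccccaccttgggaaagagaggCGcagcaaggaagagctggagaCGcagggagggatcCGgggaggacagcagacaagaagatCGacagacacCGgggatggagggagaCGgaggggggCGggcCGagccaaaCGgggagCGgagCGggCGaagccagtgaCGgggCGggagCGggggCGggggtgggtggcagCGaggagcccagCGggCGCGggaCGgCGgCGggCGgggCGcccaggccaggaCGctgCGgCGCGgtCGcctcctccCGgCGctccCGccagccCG
Tcf7l1: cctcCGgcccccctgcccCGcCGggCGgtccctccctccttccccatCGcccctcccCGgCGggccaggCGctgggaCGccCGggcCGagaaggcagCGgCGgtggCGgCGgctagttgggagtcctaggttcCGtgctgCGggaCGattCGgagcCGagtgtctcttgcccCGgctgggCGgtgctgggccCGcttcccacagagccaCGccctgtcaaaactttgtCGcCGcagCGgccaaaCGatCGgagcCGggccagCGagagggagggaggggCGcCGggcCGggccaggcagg

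The Cd34 window held 7 CpG dinucleotides, the median of the 32851 windows kept, of which 52.1% held as many or more. The window of Lhx2 and that of Tcf7l1 held 34 each, a number reached by 7.73% of windows. A second Lhx2 start had 29, Lrig1 had 35, the Tbx1 windows had 26 and 16, and Lgr6 had 24. The 6 matched genes thus ranged from the middle of all windows to the CpG-rich tail, and the only gene among them with a median CpG content was Cd34. Methylation of these windows was not measured in the libraries.

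**Figure D1:**
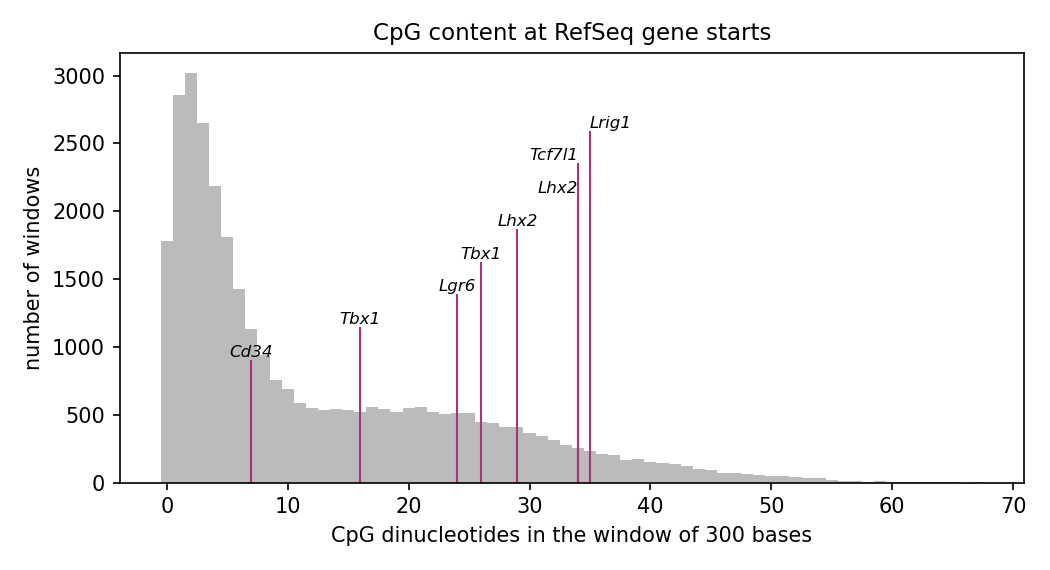
CpG content at gene starts. Gray bars give the number of windows (y axis) with a given number of CpG dinucleotides in 300 bases (x axis) over 32851 RefSeq starts, and lines mark the 8 windows of 6 hair follicle stem cell genes, with line heights chosen only to separate the names. Cd34 lies at the median of 7, and the other windows lie between 16 and 35.

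Levels between genes were compared as RPKM, read counts scaled by exon length and library size. In control keratinocytes they ran from 84.8 ± 3.83 RPKM for Sox9 to 0.0616 ± 0.0170 RPKM for Cd34 (SD, n = 3). Lrig1 followed Sox9 with 17.2 ± 3.03 RPKM, then Tcf7l1 with 7.60 ± 1.67, Nfatc1 with 4.89 ± 1.54, Lhx2 with 3.17 ± 1.20 and Tbx1 with 2.22 ± 0.969 RPKM (SD, n = 3). The remaining genes were lower, with 0.294 ± 0.0608 RPKM for Lgr6, 0.229 ± 0.0547 for Gli1 and 0.0830 ± 0.0367 for Lgr5 (SD, n = 3). The control libraries of Nfatc1 and Lhx2, of Lhx2 and Tbx1, of Lgr6 and Gli1, and of Lgr5 and Cd34 overlapped, so these neighbors were not separated by their spread. Sox9 stood above 96.5% of the genes tested in control RPKM, Lrig1 above 80.1% and Tcf7l1 above 63.4%, whereas Lgr5 stood above 10.4% and Cd34 above 8.38%. Among the transcription factor genes, Sox9, Tcf7l1, Nfatc1, Lhx2 and Tbx1 thus had higher means than Lgr5, Lgr6 and Cd34, and Gli1 did not lie above Lgr6. In Dnmt1Δ/Δep keratinocytes the order of the means was the same, except that Cd34 (0.186 ± 0.0913 RPKM) came before Lgr5 (0.0461 ± 0.0352 RPKM; SD, n = 3), and the libraries of these genes no longer overlapped.

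**Figure D2:**
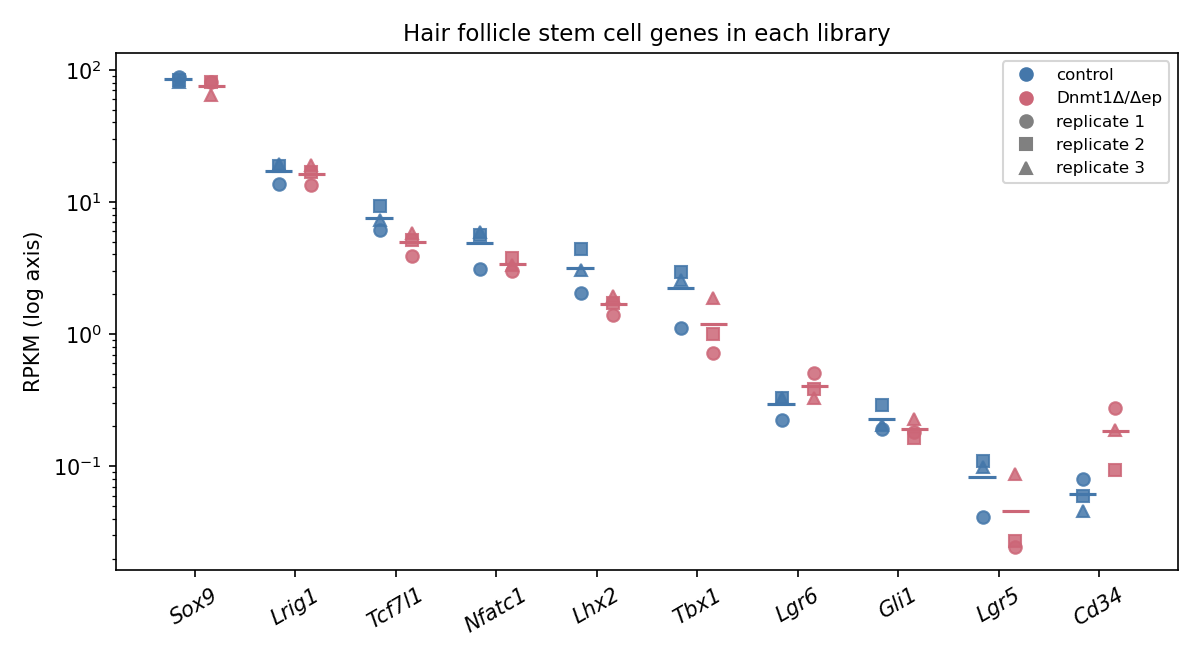
Level of each hair follicle stem cell gene in each library, in RPKM on a log axis, ordered by the control mean. Blue points are control and red points Dnmt1Δ/Δep libraries, the shape gives the replicate number and lines give the means of 3 libraries. Sox9 is highest at 84.8 RPKM in control, and Cd34 is lowest in control but not in Dnmt1Δ/Δep keratinocytes.

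The deletion was checked first. Dnmt1 had 394, 379 and 324 CPM (reads scaled to a common normalized library size) in control replicates 1, 2 and 3 and 49.7, 54.3 and 50.7 CPM in the Dnmt1Δ/Δep replicates (log2 fold change −2.83, standard error 0.11, edgeR adjusted p = 8.1e-05). Gene reads per library lay between 53433121 and 115526598 with normalization factors between 0.980 and 1.02. Replicates of one number shared a lane of the flow cell, so that each lane held 1 control and 1 Dnmt1Δ/Δep library and gave a ratio of its own. All 10 keratinocyte markers examined were present at 1 CPM or more. Their sum was 34504 to 37796 CPM in control and 26185 to 27290 CPM in Dnmt1Δ/Δep libraries. Krt5 and Krt14, the keratins of basal cells, made up most of this sum and had log2 fold changes of −0.50 and −0.61 (adjusted p = 0.038 and 0.028 in edgeR). Of the 10 markers, however, 6 had positive and 4 negative values, with a median of 0.012, and the adhesion molecule gene Epcam was higher (0.69, adjusted p = 0.040 in edgeR) while Cdh1 and Dsg3 had values of 0.00094 and 0.024.

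Positions below are those of GENCODE M21 on GRCm38, and reads were counted over the exons of each gene. Sox9, which is needed to form the stem cells of the follicle (ENSMUSG00000000567, chr11:112782224-112787760, plus strand), was measured at 367, 349 and 336 CPM in control replicates 1, 2 and 3 and at 331, 335 and 268 CPM in those of Dnmt1Δ/Δep. The groups did not overlap, but replicates 1 and 2 of Dnmt1Δ/Δep lay close to control replicate 3, and replicate 3 of Dnmt1Δ/Δep was the lowest. In the fit, Sox9 had a log2 fold change of −0.17 (95% interval −0.44 to 0.10, adjusted p = 0.44 in edgeR). Within lanes it was −0.15, −0.06 and −0.33 for replicates 1, 2 and 3. The interval lay inside the fold change threshold on both sides.

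Lhx2, a LIM homeobox factor that maintains bulge cells (ENSMUSG00000000247, chr2:38339281-38369733, plus strand), had 8.97, 19.5 and 13.3 CPM in control and 6.12, 7.60 and 8.53 CPM in Dnmt1Δ/Δep libraries. All Dnmt1Δ/Δep libraries were below all control libraries, but control replicate 1 lay just above the highest of them, and the control libraries differed more among themselves than the Dnmt1Δ/Δep libraries did. Lhx2 had a log2 fold change of −0.91 (standard error 0.29, 95% interval −1.57 to −0.24, adjusted p = 0.098 in edgeR) and was not called. Within lanes the values were −0.55, −1.36 and −0.65. Without control replicate 1, Lhx2 was called downregulated (log2 fold change −1.15, adjusted p = 0.018 in edgeR), the only gene of the 10 called lower when a library was left out. Over 12 alternatives its adjusted p ranged from 0.0136 to 0.287, and without control replicate 2 the log2 fold change was −0.59.

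Tcf7l1, also known as TCF3, is the member of the TCF/LEF family that represses Wnt target genes in bulge cells. The gene (ENSMUSG00000055799, chr6:72626378-72789254, minus strand) had 23.9, 36.8 and 28.9 CPM in control and 15.4, 20.4 and 23.0 CPM in Dnmt1Δ/Δep libraries. The groups did not overlap, and the highest Dnmt1Δ/Δep library was close to the lowest control library. The log2 fold change was −0.61 (standard error 0.21, 95% interval −1.09 to −0.13, adjusted p = 0.12 in edgeR), and the lanes gave −0.63, −0.86 and −0.33. In these bulk libraries, fewer cells of a type cannot be told apart from less RNA per cell. With the replicate number as a block the adjusted p was 0.037 in edgeR, with the fold change still below the threshold, and over 12 alternatives it ranged from 0.0372 to 0.347.

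Nfatc1 (ENSMUSG00000033016, chr18:80606205-80713071, minus strand), a calcineurin-dependent factor of quiescent bulge cells, had 23.3, 42.3 and 44.1 CPM in control and 22.6, 28.0 and 25.0 CPM in Dnmt1Δ/Δep libraries. Control replicate 1 lay among the Dnmt1Δ/Δep libraries and the other control libraries lay above all of them. Nfatc1 had a log2 fold change of −0.53 (95% interval −1.09 to 0.02, adjusted p = 0.23 in edgeR), and −0.78 with an adjusted p of 0.0088 in edgeR without control replicate 1, the lowest adjusted p of 12 alternatives, in which it reached up to 0.509 and Nfatc1 was never called. Tbx1 (ENSMUSG00000009097, chr16:18580979-18590671, minus strand), a T-box factor of self-renewing bulge cells, had 3.93, 10.4 and 9.07 CPM in control and 2.52, 3.53 and 6.60 CPM in Dnmt1Δ/Δep libraries. Its groups overlapped through control replicate 1 and Dnmt1Δ/Δep replicate 3. The log2 fold change was −0.88 with a wide 95% interval of −1.94 to 0.18 (adjusted p = 0.30 in edgeR), and it was negative in each lane, with −0.64, −1.56 and −0.46.

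The R-spondin receptor genes Lgr5 and Lgr6 were measured from few reads. Lgr5 (ENSMUSG00000020140, chr10:115450311-115587780, minus strand), which marks cycling cells of the lower bulge and hair germ, had 40, 110 and 54 reads in control and 15, 24 and 105 reads in Dnmt1Δ/Δep libraries, or 0.423, 1.13 and 1.01 CPM and 0.252, 0.278 and 0.890 CPM. Replicates 1 and 2 of Dnmt1Δ/Δep were below all control libraries and replicate 3 was within the control range. The log2 fold change was −0.81 (95% interval −2.20 to 0.58, adjusted p = 0.49 in edgeR), and it was −1.68 (adjusted p = 0.149 in edgeR, up to 0.764 over 11 alternatives) without Dnmt1Δ/Δep replicate 3. Lgr6 (ENSMUSG00000042793, chr1:134983301-135105276, minus strand), a marker of the isthmus that also labels cells of the epidermis between follicles, had 1.53, 2.26 and 2.25 CPM in control and 3.49, 2.63 and 2.23 CPM in Dnmt1Δ/Δep libraries. Its log2 fold change was 0.46 (95% interval −0.15 to 1.08, adjusted p = 0.35 in edgeR), and the lanes gave 1.19, 0.22 and −0.02, so that the difference came from replicates 1 and 2. Lgr6 reads per Lgr5 read, a ratio that needs no normalization and was looked at after the values were seen, were 3.63, 2.00 and 2.24 in control and 13.9, 9.46 and 2.50 in Dnmt1Δ/Δep libraries. Replicates 1 and 2 of Dnmt1Δ/Δep were above all control libraries and replicate 3 was among them. Within lanes the ratio was higher in Dnmt1Δ/Δep in all 3, by 1.94, 2.24 and 0.16 on the log2 scale for replicates 1, 2 and 3, which is given as a description.

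Cd34 (ENSMUSG00000016494, chr1:194938819-194961279, plus strand) had 55, 42 and 18 reads in control and 120, 59 and 162 reads in Dnmt1Δ/Δep libraries, or 0.581, 0.431 and 0.335 CPM and 2.01, 0.682 and 1.37 CPM. Each Dnmt1Δ/Δep library was above each control library, with replicate 2 only slightly so. The mean was 3.02-fold higher in Dnmt1Δ/Δep keratinocytes, and the fitted log2 difference was 1.57 (standard error 0.44, 95% interval 0.54 to 2.61, adjusted p = 0.071 in edgeR). Within lanes the values were 1.79, 0.66 and 2.03. Cd34 was called upregulated with the replicate number as a block (1.49, adjusted p = 0.046 in edgeR), with all counted genes kept (1.52, edgeR adjusted p = 0.035), with the Wald test of DESeq2 (1.53, adjusted p = 0.0087) and when Dnmt1Δ/Δep replicate 2 was left out (1.84, edgeR adjusted p = 0.046). Its adjusted p ranged from 0.0087 to 0.225 over 11 alternatives. Exons of Cd34 share 2.03% of their length with the antisense gene Gm16897, and whether the counting used strand is not given in the sources used here.

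Cd34 is also made by fibroblasts, endothelial cells and mast cells, whose markers were therefore read in the same libraries. Of 10 fibroblast markers, such as Col1a1 and Pdgfra, 7 were at 1 CPM or more in control and 8 in Dnmt1Δ/Δep keratinocytes. Their summed level was 21.1, 32.0 and 14.0 CPM in control and 68.4, 16.1 and 58.1 CPM in Dnmt1Δ/Δep libraries. Fibroblast markers were thus high in the libraries where Cd34 was highest, Dnmt1Δ/Δep replicates 1 and 3. In Dnmt1Δ/Δep replicate 2 their sum was below that of control replicates 1 and 2, while Cd34 was above both. Of the 10 fibroblast markers, 10 had a positive log2 fold change, with a median of 1.08 and 0 called in edgeR or DESeq2 (3 higher at an unadjusted p of 0.05). Of single markers, Mfap5 (0.925 CPM) and Thy1 (2.31 CPM) were above all control libraries in Dnmt1Δ/Δep replicate 2. In the same library Col3a1 (2.79 CPM) and Dcn (0.879 CPM) were below all control libraries, and the other fibroblast markers were within the control range. Of 10 endothelial markers, 4 were at 1 CPM or more in control and 6 in Dnmt1Δ/Δep keratinocytes, with sums of 15.3 to 28.8 and 26.6 to 34.1 CPM. The junctional gene Cdh5 had 0.255 ± 0.264 CPM in control and 4.62 ± 1.10 CPM without DNMT1 (SD, n = 3; adjusted p = 0.0097 in edgeR). It entered the test through the Dnmt1Δ/Δep libraries, since 1 of the 3 control libraries was below the filter's minimum of 0.11 CPM. The call of Cdh5 is therefore no support for a rise. Pecam1 rose from 1.92 ± 0.639 to 7.16 ± 1.35 CPM (SD, n = 3; adjusted p = 0.0075 in edgeR), and both genes were chosen after their values were seen. The log2 fold change was positive in 6 of the 8 tested endothelial markers, with a median of 0.83. The most abundant of them, Egfl7, had 9.70 ± 1.28 CPM in control and 9.31 ± 0.826 CPM without DNMT1 (SD, n = 3). Kdr had 13.3, 4.37 and 2.75 CPM in the controls, where replicate 1 was highest, and a mean of 6.11 ± 2.90 CPM (SD, n = 3) without DNMT1, and Cldn5 had at most 1 read in any library. Of 6 mast cell markers, 0 reached 1 CPM in either group, with sums of 0.112 to 0.127 and 0.168 to 0.197 CPM, and Cpa3, Mcpt4 and Fcer1a had 0 reads throughout. The part of these cell types in the Cd34 reads was not tested.

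**Figure D3:**
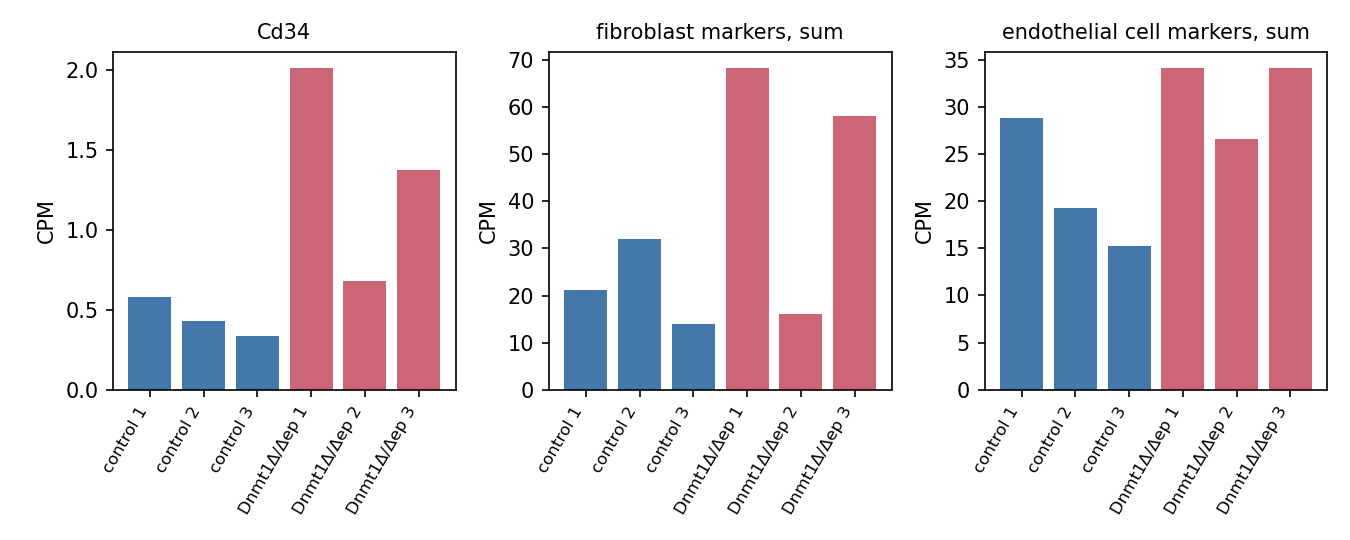
Cd34 and marker lists in each library, in CPM from 0. Bars are single libraries, blue for control and red for Dnmt1Δ/Δep, with Cd34 on the left, the sum of 10 fibroblast markers in the middle and the sum of 10 endothelial markers on the right. Dnmt1Δ/Δep replicate 2 has fibroblast markers in the control range (16.1 CPM) and the lowest Cd34 of its group (0.682 CPM).

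Lrig1 and Gli1 differed least in the fit beside Sox9. Lrig1 (ENSMUSG00000030029, chr6:94604529-94700158, minus strand), a marker of the junctional zone, had 76.8, 105 and 107 CPM in control and 74.5, 94.2 and 106 CPM in Dnmt1Δ/Δep libraries. The groups overlapped almost completely, and in each group replicate 1 was the lowest. Its log2 fold change was −0.07 (95% interval −0.48 to 0.34, adjusted p = 0.87 in edgeR). Gli1 (ENSMUSG00000025407, chr10:127329882-127341974, minus strand) had 0.951, 1.46 and 1.02 CPM in control and 0.906, 0.821 and 1.14 CPM in Dnmt1Δ/Δep libraries, with a log2 fold change of −0.26 (95% interval −0.92 to 0.40, adjusted p = 0.67 in edgeR). In Gli1 the lanes disagreed in sign, with −0.07, −0.83 and 0.15. Of the exon length of Gli1, 6.55% is shared with Arhgap9 and the antisense gene Gm47200, and the shares were 2.58% for Lrig1 with Slc25a26 and 4.56% for Tcf7l1 with the antisense gene Gm15401.

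**Figure D4:**
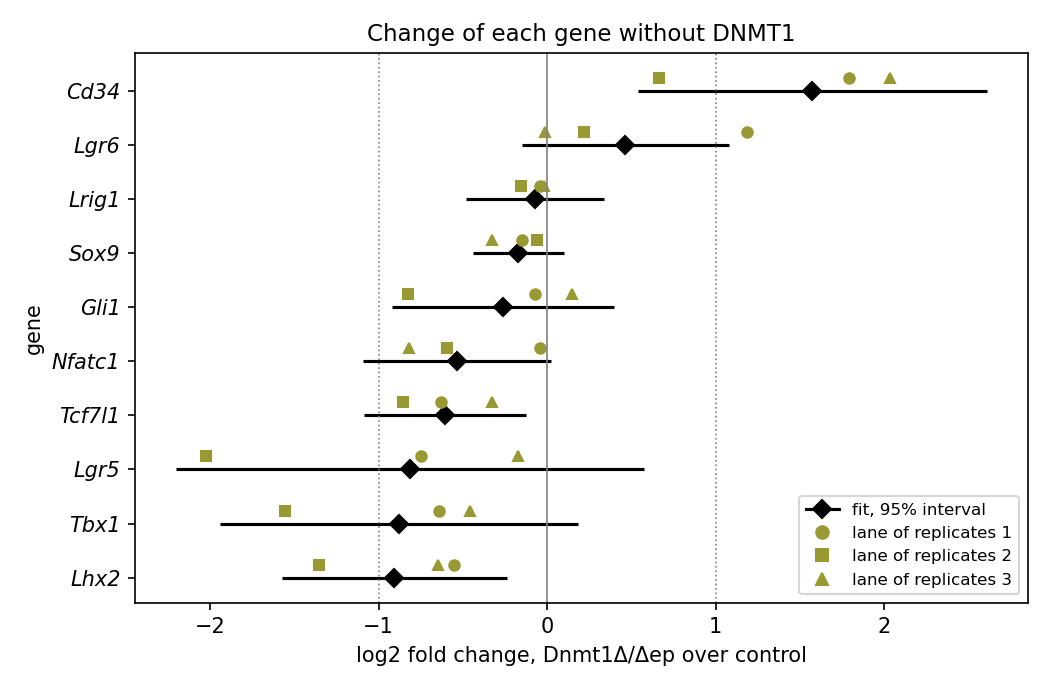
Log2 fold change of each gene in Dnmt1Δ/Δep over control keratinocytes (x axis). Black diamonds and lines give the edgeR fit with its 95% interval, and olive symbols give the ratio within each lane, which held 1 library of each group. Dotted lines mark the fold change threshold of 1. Cd34 lies highest at 1.57 and Lhx2 lowest at −0.91, and 7 genes are negative in all 3 lanes.

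Replicates varied together within the 10 genes. Control replicate 1 was the lowest control library in 8 of them, beside 41.2% of all genes tested, and Dnmt1Δ/Δep replicate 1, from the same lane, was the lowest of its group in 6, beside 38.5% of all genes. Both held at once in 6 of the genes (Lhx2, Lgr5, Nfatc1, Tbx1, Lrig1 and Tcf7l1), beside 22.9% of all genes. The ratio within the lane was negative in all 3 lanes for 7 of the 10 genes, Sox9, Lhx2, Lgr5, Nfatc1, Tbx1, Lrig1 and Tcf7l1, beside 25.3% of all genes. Of the 10 genes, Cd34 alone was positive in all 3, beside 26.0% of all genes.

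Genes of the same pathways were examined in 6 lists with 132 genes, of which 119 were tested. Of these, 5 were upregulated (4.2%) and 1 was downregulated (0.84%), beside 6.03% and 0.392% of all genes tested, and 52 (43.7%) had groups that did not overlap, beside 29.9% of all genes. At an unadjusted p of 0.05, 27 (22.7%) were higher and 25 (21%) lower, beside 15.8% and 7.79% of all genes tested. Their median log2 fold change was −0.04. Family relatives of the 10 genes had 2 of 15 tested genes upregulated, 0 downregulated (3 higher and 5 lower at an unadjusted p of 0.05, 0 called lower by DESeq2) and a median of −0.26. The list of other hair follicle stem and progenitor genes had 0 of 17 called in the unblocked edgeR fit of all libraries or by DESeq2 and a median of 0.13, with 7 genes higher and 2 lower at an unadjusted p of 0.05. Wnt pathway genes had 1 of 38 upregulated, 0 downregulated (6 higher and 9 lower at an unadjusted p of 0.05, 1 called lower by DESeq2) and a median of −0.02. Hedgehog pathway genes had 1 of 12 upregulated, 1 downregulated and a median of −0.11. BMP pathway genes had 0 of 19 called in the same edgeR fit or by DESeq2 and a median of 0.0042, with 6 genes higher and 2 lower at an unadjusted p of 0.05. Genes of follicle downgrowth and differentiation had 1 of 18 upregulated, 0 downregulated (4 higher and 4 lower at an unadjusted p of 0.05, 0 called lower by DESeq2) and a median of 0.14. With the replicate number as a block, Gata6, a transcription factor gene of the stem and progenitor list, was called higher and Apcdd1, a Wnt inhibitor, lower in addition, which made 6 upregulated and 2 downregulated genes in all. In other alternatives edgeR also called Tnc and Fzd9 higher and Cd200 lower (without control replicate 1), Foxq1 higher (without control replicate 3) and the BMP antagonist gene Grem1 higher (without a filter, or without Dnmt1Δ/Δep replicate 2).

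**Figure D5:**
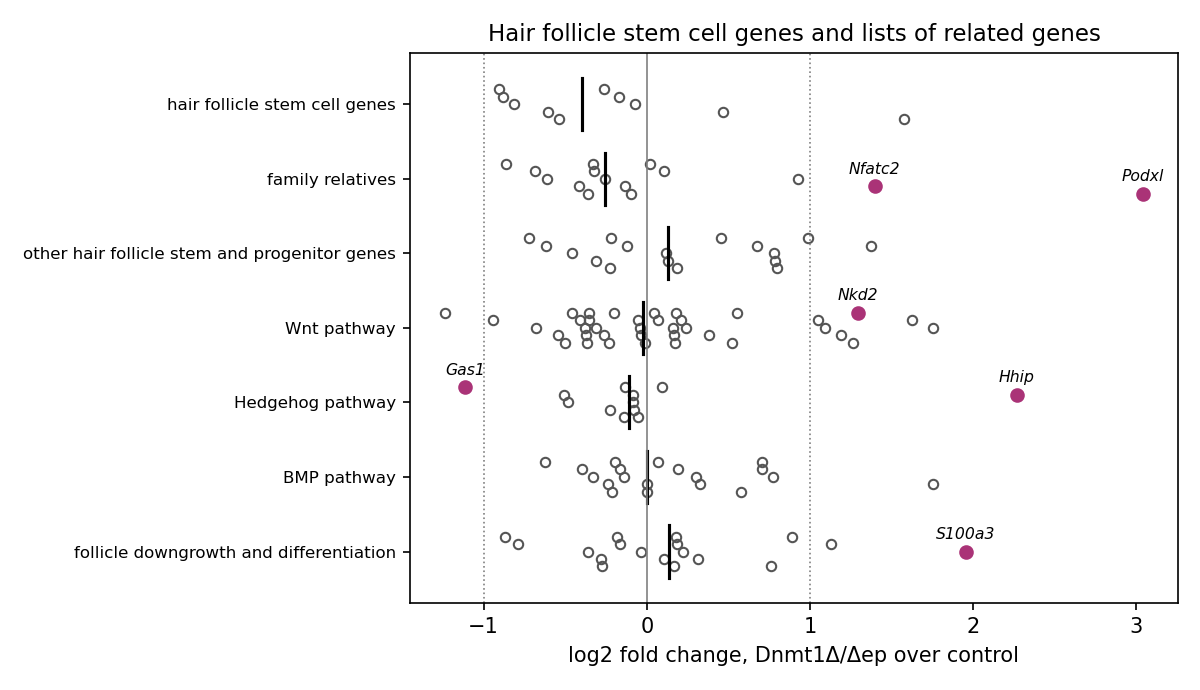
Log2 fold change in Dnmt1Δ/Δep over control keratinocytes (x axis) of the hair follicle stem cell genes and of 6 lists of related genes (rows). Each circle is a tested gene, filled and named where it was called, short lines are medians, and the vertical position within a row only separates the circles. Called genes are Podxl, Nfatc2, Nkd2, Hhip and S100a3 on the right and Gas1 on the left.

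Among the family relatives, Podxl, which encodes podocalyxin, a sialomucin of the CD34 family, rose most. It had 13.2, 3.64 and 3.13 CPM in control and 69.7, 47.8 and 47.9 CPM in Dnmt1Δ/Δep libraries, with control replicate 1 above the other controls and all Dnmt1Δ/Δep libraries well above it. The log2 fold change was 3.04 (standard error 0.56, adjusted p = 0.017 in edgeR). It was 4.02 without control replicate 1, and Podxl was not called without control replicate 2 or Dnmt1Δ/Δep replicate 1. Podxl and Cd34 were both higher in each Dnmt1Δ/Δep library than in any control library, as were 3059 of all 16829 genes tested. The groups of Podxl2, another gene of this list, overlapped (log2 fold change −0.10, adjusted p = 0.93 in edgeR). Podocalyxin is found on endothelial cells too. Nfatc2, a relative of Nfatc1, rose from 1.05 ± 0.227 to 2.75 ± 0.160 CPM (SD, n = 3), with 1.40 as its log2 fold change (edgeR, adjusted p = 0.013), but was not called without replicate 2 of either group. Nfatc3 was the most abundant gene of that list, at 169 CPM in control against 141 CPM after deletion. Gli2, the main activator of Hedgehog target genes in follicles, was lower at the adjusted p but not at the fold threshold (log2 fold change −0.86, adjusted p = 0.039 in edgeR), and was called lower without Dnmt1Δ/Δep replicate 3.

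In the Hedgehog pathway the called genes belonged to the reception of the ligand. Gas1, a coreceptor for Hedgehog ligands, fell from 16.7 ± 2.96 to 7.71 ± 1.46 CPM (SD, n = 3), with groups that did not overlap and a log2 fold change of −1.11 (adjusted p = 0.015 in edgeR). It was not called without control replicate 2, Dnmt1Δ/Δep replicate 1 or Dnmt1Δ/Δep replicate 2. Hhip, which encodes a membrane protein that binds and sequesters the ligands, had 0.0956 ± 0.0307 CPM in control and 0.451 ± 0.228 CPM without DNMT1 (SD, n = 3), and passed the thresholds with 2.27 as its log2 fold change (edgeR, adjusted p = 0.046). It entered the test through the Dnmt1Δ/Δep libraries, since 2 of the 3 control libraries were below the filter's minimum of 0.11 CPM, so its call is no support for a rise. Its values rested on few reads, and Hhip stayed called in 1 of the 6 fits that left out a library, that without Dnmt1Δ/Δep replicate 2. In the Wnt pathway, Nkd2, a feedback inhibitor, rose from 3.81 ± 0.609 to 9.37 ± 0.843 CPM (SD, n = 3). Its log2 fold change of 1.30 had a standard error of 0.18 and an adjusted p of 0.0056 in edgeR, and it passed in each of the 12 alternatives. The ligand genes Wnt4 and Wnt3, the receptor gene Fzd6 and the ubiquitin ligase gene Rnf43 were lower at the adjusted p without reaching the fold threshold. Wnt4 had 341 ± 80.1 CPM in control against 177 ± 5.21 CPM (SD, n = 3), with a log2 fold change of −0.94 (edgeR, adjusted p = 0.014), and it was called without control replicate 1, control replicate 3 or Dnmt1Δ/Δep replicate 2. Gata3, a factor of the inner root sheath, had a log2 fold change of −0.79 (adjusted p = 0.015 in edgeR).

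S100a3, a calcium-binding gene of the hair cuticle, rose from 3.28 ± 1.93 to 12.8 ± 5.58 CPM (SD, n = 3), with 1.96 as its log2 fold change (edgeR, adjusted p = 0.047). It was called only without control replicate 1 or Dnmt1Δ/Δep replicate 3 when a library was left out, and its log2 fold change was 2.56 in the former fit. Plet1, a surface marker of the follicle infundibulum and isthmus, was the most abundant gene of the other stem and progenitor markers, with 493 ± 34.4 CPM in control against 850 ± 147 CPM (SD, n = 3). Its log2 fold change of 0.79 passed the adjusted p (0.018 in edgeR) and not the fold threshold, and so did Npnt, which encodes the bulge matrix protein nephronectin (0.80, adjusted p = 0.023 in edgeR). Nfib, a transcription factor of bulge cells, followed Plet1 in abundance and had a log2 fold change of −0.31 (adjusted p = 0.31 in edgeR). The BMP receptor genes Bmpr1a and Bmpr2 were the most abundant of their list. Bmpr1a had 213 ± 22.3 and 162 ± 13.3 CPM (SD, n = 3; adjusted p = 0.077 in edgeR), and Bmpr2 had 134 ± 57.8 and 153 ± 61.5 CPM (SD, n = 3; adjusted p = 0.84 in edgeR).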

How the data were processed

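Poly(A)-selected RNA of 3 control and 3 Dnmt1Δ/Δep keratinocyte cultures was sequenced by the authors, who trimmed adapters with cutadapt, removed ribosomal reads, aligned with STAR and counted reads per gene with htseq-count. The deposited values are raw counts per Ensembl gene, and the submitters' processing notes list GRCm38 (a human build is named for the STAR index in the study's methods, but the gene IDs are those of mouse). Libraries were matched to groups by the library number in titles and headers. The 5 entries that name no gene, 8.73% to 12.9% of the reads, were left out. Tables of repeats and of the authors' own comparisons (fold changes, p-values, normalized counts) were not used here.

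Counts were tested with edgeR 4.0.16 in R 4.3.3 (TMM, filterByExpr with minimum counts of 10 and 15, quasi-likelihood test, no block), with Benjamini-Hochberg adjustment over 16829 genes, after testing the scripts on simulated data. Standard errors divide the log2 fold change by the root of F, and intervals are 95% intervals of the fit. CPM use normalized library sizes, and RPKM use exon lengths of GENCODE M21 on GRCm38. A count of 3 equals 0.0254 to 0.0558 CPM, and counts cover counting error only. Alternatives used DESeq2 1.42.0, other normalization factors and filters, a replicate block, and each library left out. The replicate numbers pair the libraries: same-numbered libraries share a lane, and their deviations from the group means correlated across 16829 genes with 0.43, 0.28 and 0.30. P-values of the fit without a block measure the spread between libraries of a group, which differ in both culture and lane. The study's methods name 3 mice per group. Python 3.11.15 with pandas 2.3.3 was used for summaries, and matplotlib 3.10.9 for figures.

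Named genes are the 10 members, Dnmt1, called genes of the lists, the 2 most abundant genes of lists with none called, the top gene of marker lists, and the 3 genes most correlated with each of the 3 members with the highest RPKM. Cdh5, Pecam1, Cldn5, Gli2, Wnt3, Wnt4, Fzd6, Rnf43, Gata3, Npnt, Krt14, Epcam, Cdh1, Dsg3, Kdr, Itgam, Csf1r, Ptprc, Lyz2, Cd207, Cd3e, Nfatc3, Apcdd1, Gata6, Tnc, Cd200, Grem1, Fzd9, Foxq1, Pdgfra, Mfap5, Thy1, Cpa3, Mcpt4, Fcer1a and the Lgr6 to Lgr5 ratio were named after their values were seen. Podxl2, Col3a1 and Dcn were also named after their values were seen. The members and lists were chosen with earlier results of these data known.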

Additional observations from a re-analysis of the deposited data

How the results depend on the processing

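Of the 10 hair follicle stem cell genes, 0 were called upregulated, and 1 (Cd34) was with DESeq2, with no filter and with the replicate block. In fits that left out 1 library this number lay between 0 and 1, and so did the number downregulated, which was 0 in all other alternatives. The 5 upregulated genes of the related lists numbered 2 with a minimum of 1 RPKM, and 1 to 6 when a library was left out, with 1 without control replicate 2 and 2 when Dnmt1Δ/Δep replicate 1 was left out. The replicate block gave 6. Over all genes tested, 1014 were called upregulated in the main fit, 395 with a minimum of 1 RPKM and 1173 with the block. Without control replicate 2 this number was 559, and without Dnmt1Δ/Δep replicate 1 it was 591. The 1 downregulated gene of these lists, Gas1, was joined by Apcdd1 to make 2 with size factors of DESeq2 in edgeR, with DESeq2, without a filter and with the replicate block. The number was 7 at the adjusted p alone and 0 to 4 when a library was left out, with 0 without control replicate 2 or Dnmt1Δ/Δep replicate 1 and 4 without control replicate 1. Over all genes tested, 66 were called downregulated in the main fit and 180 without control replicate 1. Without control replicate 2 or Dnmt1Δ/Δep replicate 1 this number was 15 each. The replicate block changed no other call of the 10 genes. The log2 fold change of Lrig1 turned positive without control replicate 3 (0.0092) or Dnmt1Δ/Δep replicate 1 (0.055), within a range of −0.21 to 0.055 over the fits that left out a library, and that of Bmpr2 lay between −0.0032 (without control replicate 1) and 0.60 (without control replicate 3). Dnmt1 was called in all 12 alternative fits, with log2 fold changes from −2.92 to −2.77. The cause of these changes was not tested. Cd34, Lgr5, Lgr6 and Gli1 were below 1 RPKM in both groups and were not tested with that minimum. Depth limits Lgr5, Cd34 and Gli1 most, with as few as 15, 18 and 54 reads in a library.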

Other observations

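Markers of further cell types were measured in the same libraries. All 8 melanocyte markers were at 1 CPM or more in both groups, with sums of 228 to 582 CPM in control and 700 to 929 CPM in Dnmt1Δ/Δep libraries, led by Pmel with 142 and 254 CPM. Of 8 leukocyte markers, 1 was at 1 CPM or more in control and 3 in Dnmt1Δ/Δep keratinocytes, with sums of 49.2 to 63.2 and 102 to 119 CPM that came mostly from Cd68 (54.1 and 106 CPM). All 4 tested leukocyte markers had positive log2 fold changes, and Itgam (2.35, adjusted p = 0.047 in edgeR) and Csf1r (2.67, adjusted p = 0.027 in edgeR) were called higher, while Ptprc, Lyz2, Cd207 and Cd3e were too low to be tested. Of 5 dermal papilla markers, 2 reached 1 CPM in each group, led by Vcan, with sums of 59.7 to 101 and 58.4 to 155 CPM. Of 5 Merkel cell markers, 0 and 1 reached 1 CPM, led by Piezo2, with sums of 0.867 to 1.27 and 1.62 to 2.15 CPM. Of 5 muscle markers, 0 reached 1 CPM in either group, and they, led by Acta1, summed to 0.267 to 0.507 and 0.358 to 0.973 CPM. Egfl7 led the endothelial list with 9.70 and 9.31 CPM, Col1a1 the fibroblast list with 4.98 and 12.2 CPM, and Cma1 the mast cell list with 0.107 and 0.146 CPM. The part of these cells in the levels of the hair follicle stem cell genes was not tested.

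The profile over the 6 libraries was compared with 12462 other genes of at least 1 CPM by Pearson's r of log2 CPM (prior count 2), as a description over 6 libraries that share lanes and normalization. Sox9 was most like Lrrc51 (r = 0.988), Clp1 (0.984) and Cuta (0.981), and 79 genes had an r above 0.9. Lrig1 was most like Gm20721 (0.994), Dzank1 (0.992) and Acat3 (0.992), with 306 genes above 0.9. Tcf7l1 was most like Asap3 (0.996), Zc3h7b (0.993) and Phf2 (0.991), with 626 genes above 0.9.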
